A study of Mus musculus with 8 samples.

Results

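The genes described here are the nuclear genes for complexes II to V of the mitochondrial respiratory chain, with cytochrome c and a set of assembly factors that share their names. The rule that picks them goes by gene name: every gene of the deposited table called Sdha to Sdhd, Sdhaf with a digit, Uqcr, Cyc1, Cycs, Cox with a digit, or Atp5, leaving out 8 cytochrome oxidase genes that form muscle and non-muscle isoform sets (Cox4i1, Cox4i2, Cox6a1, Cox6a2, Cox7a1, Cox7a2, Cox8a and Cox8b). The name pattern matched 59 of the 17911 genes, and 51 remained. The name rule uses no measured value. The 51 were 4 genes of complex II, 9 of complex III, 8 of complex IV, 15 of complex V, the electron carrier Cycs, 13 assembly factors (4 for complex II and 9 for complex IV) and Atp5s. The assembly factors and Atp5s are not counted among the subunits below, since they help to build or couple a complex and are not part of its core. Cox7a2l, a relative of a cytochrome oxidase subunit, is counted with complex IV.

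RNA was sequenced from whole hearts of 4 female and 4 male mice, each heart on its own. All were of genotype C57Bl6/J wt, with no transgene, deletion or treatment named for either sex, and all carried batch label 1. The age was given as 4 weeks in one place and as 4 to 6 weeks in another. The extraction protocol named a kit for small RNA, while the molecule was given as total RNA.

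Complex II passes electrons from succinate to ubiquinone, complex III passes them on to cytochrome c, complex IV passes them to oxygen, and complex V uses the resulting proton gradient to make ATP. Complex II is built from nuclear genes only, whereas complexes III, IV and V each join nuclear subunits with a few made inside the mitochondrion. Heart muscle, which beats without rest, is among the tissues richest in these complexes.

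The 3 genes Atp5g1, Atp5g2 and Atp5g3 encode the same mature c subunit, the piece repeated around the rotating ring of complex V, and their coding ends are shown because reads of such close relatives have to be told apart before their levels mean anything. Given here are the last 90 coding bases before the stop codon, 5′ to 3′, from the GENCODE vM21 transcripts of mouse build mm10, with the positions that differ between any of the 3 genes in capitals. Atp5g1 lies at chr11:96068852-96075670 (minus strand), Atp5g2 at chr15:102662864-102672352 (minus strand) and Atp5g3 at chr2:73908447-73911326 (minus strand), and all are protein-coding genes whose printed stretch is exonic coding sequence.
Atp5g1: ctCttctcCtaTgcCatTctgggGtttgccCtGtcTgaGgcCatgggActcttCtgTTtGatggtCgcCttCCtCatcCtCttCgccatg
Atp5g2: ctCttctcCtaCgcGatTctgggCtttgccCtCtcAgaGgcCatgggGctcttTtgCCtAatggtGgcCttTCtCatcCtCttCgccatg
Atp5g3: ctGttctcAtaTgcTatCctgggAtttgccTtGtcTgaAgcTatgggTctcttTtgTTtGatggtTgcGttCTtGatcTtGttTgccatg
Capitals stand at 24 of the 90 positions. Over the last 225 coding bases, identity was 84.9% between Atp5g1 and Atp5g2, 80.0% between Atp5g1 and Atp5g3, and 78.7% between Atp5g2 and Atp5g3. The longest run of identical bases between any pair was 20, so a read that covers more of this stretch meets at least 1 base differing within the pair. The rest of these transcripts was not compared. Stretches of Atp5g1 matched Gm10039 and Pdzd2, and a stretch of Atp5g2 matched Gm10175, at 98% identity or more over at least 100 bases. Exons of Atp5g2 also overlapped 75 bases of Mir688 on the same strand. Atp5g3 had no such match.

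Promoter letters were read for the same reason, since these genes are textbook targets of nuclear respiratory factors and of estrogen-related receptors. RefSeq start sites (GRCm38.p6, from 250 bases before to 50 after the start) gave 44 windows for 40 of the 51 genes. Sdhc, Uqcrc2, Cyc1, Uqcrb, Uqcrq, Cox6c, Atp5a1, Atp5f1, Cox17, Cox18 and Atp5s had no entry. The NRF1 letters, GCGCA, any base and GCGC in a row on either strand, stood in 11 of the 44 windows (25.0%) and in 8.40% of all 15652 windows of the same length. Matches upstream of the start are shown for 5 genes with 10 bases on each side, 5′ to 3′ on the gene's strand, with the matched letters in capitals.
Sdha, chr13:74350319-74350348 (minus strand): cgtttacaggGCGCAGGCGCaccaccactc
Sdhd, chr9:50603909-50603938 (minus strand): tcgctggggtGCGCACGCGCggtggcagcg
Atp5h, chr11:115420041-115420070 (minus strand): gaccccgacgGCGCAGGCGCcgcgcccgcc
Atp5k, chr5:108434430-108434459 (minus strand): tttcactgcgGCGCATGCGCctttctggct
Atp5g2, chr15:102671070-102671099 (minus strand): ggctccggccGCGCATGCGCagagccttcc
Sdha held these letters 3 times before its start. The first 10-letter match of Atp5k lay 40 to 50 bases before the RefSeq start, that of Sdhd 69 to 79 bases and that of Atp5h 131 to 141 bases. The other letters searched on both strands were CCGGAAG, the core bound by ETS factors such as GABPA, in 19 windows (43.2%, all windows 15.01%), AAGGTCA, bound by estrogen-related receptors, in 5 (11.4%, all windows 3.41%), AAGATGGCG, bound by YY1, in 3 (6.82%, all windows 2.47%), and the TATA box letters TATAAA in 3 (6.82%, all windows 7.86%). None of these 5 strings is part of another. By GENCODE vM21, the shown stretches of Atp5k and Atp5g2 overlap an annotated exon of the same gene, those of Sdhd and Sdha an exon of the neighbour on the other strand (Timm8b and Ccdc127), and that of Atp5h no exon. A match describes the letters and shows no binding.

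Levels are normalized read counts, that is, the reads of a gene over the size factor of its heart as the authors deposited them. The hearts held 51.7 M to 75.7 M reads, and all 51 genes passed the filter on low values, which removed 0 of the 17911 genes. Sex differences are log2 fold changes, female minus male, of the normalized read count plus 1, tested with limma over all genes with Benjamini-Hochberg adjustment. The labelled tissue was checked against its markers: 8 of 8 cardiomyocyte markers were measured, with a median level at the 99.9th percentile of all genes. Because whole hearts were measured, fewer cells of a type and less RNA per cell cannot be told apart. Nothing in the labels says that litters or days differed, so p-values measure only the spread between these 8 hearts.

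The subunit genes are among the most abundant messenger RNAs measured in these hearts, and most assembly factors are not. The 51 genes held between 2.83% and 3.01% of all reads in the 8 hearts. Of the 37 subunit genes and Cycs, 36 were above the 90th percentile of normalized read count over all genes, the exception being Cox6b2. Of the other 14 genes, 1 was, Cox14. Per kilobase of exon, the highest level belonged to Atp5a1, the alpha subunit of the catalytic head of complex V (chr18:77773729-77782869, plus strand), at 92420 ± 3882 normalized reads per kb in females and 92342 ± 2372 in males (mean ± SD, n = 4 per sex). Next came Atp5b, the catalytic beta subunit (chr10:128083273-128090391, plus strand), at 73251 ± 2842 in females and 72563 ± 1272 in males. Their order turned with the length used: the ratio of Atp5a1 to Atp5b per kb was 1.27 with the union of exons, 0.672 with the longest transcript and 0.698 with the median coding transcript. Cox6b1, an intermembrane-space subunit of complex IV, stood at 40231 per kb over the 8 hearts, Atp5g3 at 33959 and Uqcrfs1, the Rieske iron-sulfur protein of complex III, at 32037.

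The middle of each complex was alike on this scale. The median gene stood at 18939 normalized reads per kb of exon in complex II, 21619 in complex III, 18475 in complex IV and 15719 in complex V. Complex III genes spanned a 1.93-fold range, from Uqcrq at 16614 to Uqcrfs1 at 32037 (4.36-fold with the median coding transcript, from Uqcrfs1 to Uqcrc1), and complex II genes a 2.99-fold range, from the membrane anchor Sdhc at 8620 to the flavoprotein Sdha at 25744. With the median coding transcript Uqcrfs1 stood at 0.531 of Uqcrq. Assembly factors were lower, with a median of 599 per kb, a low of 101.5 for Sdhaf3 and a high of 8144 for Cox14. The testis-type isoform Cox6b2 stood at 108.8 per kb, 370-fold under Cox6b1, and 211- to 224-fold under it with the other lengths.

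**Figure D1:**
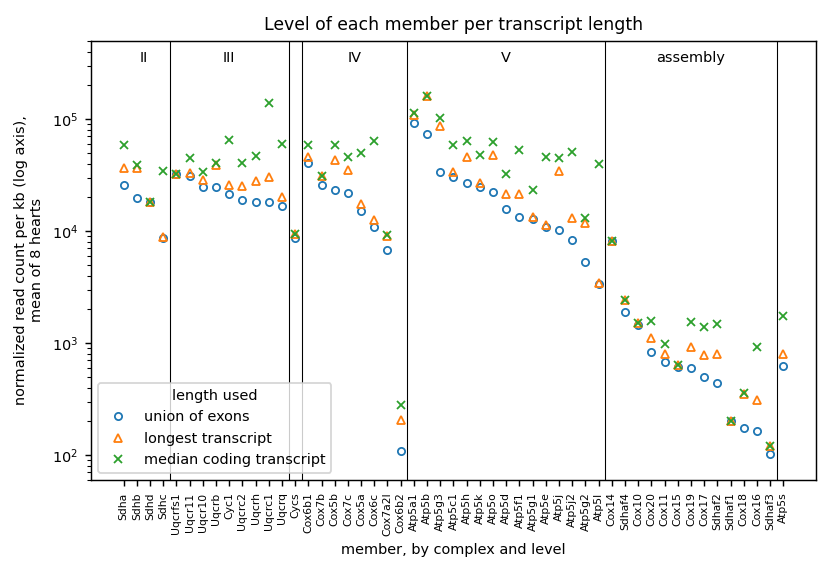
Level of each of the 51 genes as normalized read count per kb (log axis, mean of 8 hearts), grouped by complex, with 3 definitions of transcript length as separate symbols. With each length, 36 of the 37 subunit genes and Cycs, all but Cox6b2, lie above Atp5s and every assembly factor other than Cox14.

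No gene of the 51 differed between the sexes at a limma adjusted p under 0.05, against 1.16% of all genes (208 of 17911). Over all genes 0.475% were called higher in females and 0.687% lower. At an unadjusted limma p under 0.05 there were 6 of 51 (Sdhaf2, Atp5s, Sdhaf3, Cox7a2l, Cox6b2 and Uqcrb), against a background of 16.0% of all genes. On the recovered reads, edgeR called 0 of the 51 (background 0.927%), DESeq2 0 (background 3.85%) and limma-voom 0 (background 0.983%). The authors' deposited table gave none of the 51 an adjusted p under 0.05, its lowest being 0.110 for Sdhaf2. That table and the DESeq2 fit each called 690 of all genes, so the authors' result may not be separate from it. The median log2 fold change was -0.018, against 0.0023 over all genes (-0.046 without female replicate 3 and -0.0039 without male replicate 4), and 31 of 51 values were below 0, against 49.1% of all genes.

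How large a difference could have been missed is shown by the intervals. For 46 of the 51 genes the 95% interval of the log2 fold change lay within 0.2 of 0, which held for 38.3% of all genes, and for 13 genes it lay within 0.1. The exceptions at 0.2 were Cox6b2, Sdhaf3, Cox11, Cox20 and Atp5s. The spread between hearts was small: the median coefficient of variation within a sex was 3.57% for the 51 genes and 7.61% for all genes. The median level was 24632 normalized reads for the 51 genes and 594 for all genes. Neither trait was particular to the 51. The median coefficient was 3.67% for 37 nuclear genes with complex I names (Nduf) and 3.52% for 14 citric acid cycle genes. Their intervals lay within 0.2 of 0 for 35 of the 37 and for all 14.

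**Figure D2:**
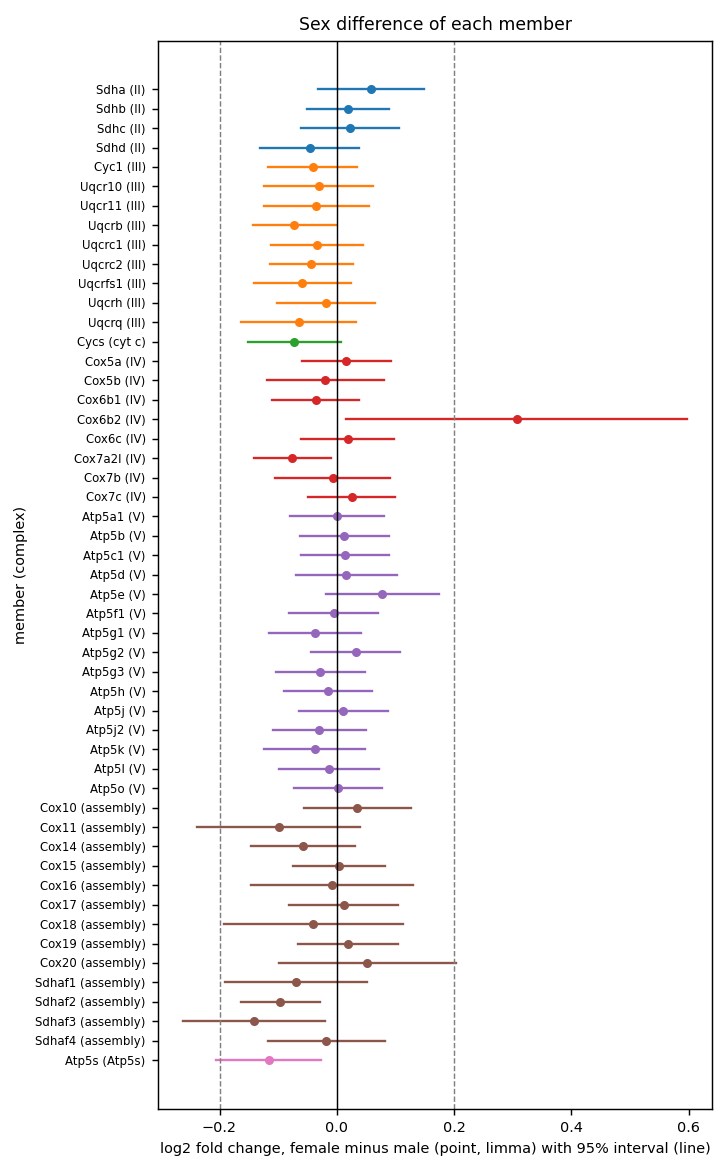
Log2 fold change, female minus male, of each of the 51 genes (points) with its 95% interval from limma (lines), and dashed lines at -0.2 and 0.2. Only Cox6b2, the least abundant subunit, has an interval reaching 0.60, and 46 intervals stay between the dashed lines.

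Complex II oxidizes succinate through Sdha, which carries the flavin, and Sdhb, which carries the iron-sulfur clusters, and it is held in the membrane by Sdhc and Sdhd. Sdha (chr13:74322254-74350280, minus strand) measured 108056, 106714, 116840 and 102120 normalized reads in female hearts and 103466, 102368, 101675 and 108530 in male hearts. Female replicate 3 was the highest heart, and the sexes overlapped. Its log2 fold change was 0.059 ± 0.042 (SE), with a limma adjusted p of 0.539. Sdhb had a log2 fold change of 0.019, Sdhc of 0.023 and Sdhd of -0.046, with limma adjusted p-values from 0.616 to 0.83. Without female replicate 3, the value of Sdha was 0.022, that of Sdhb -0.0040 and that of Sdhc -0.0099.

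The 4 assembly factors of complex II all had values below 0, with a median log2 fold change of -0.083. Sdhaf2, which aids attachment of the flavin to Sdha (chr19:10500534-10526142, minus strand), measured 3023, 3069, 3089 and 2948 normalized reads in females and 3187, 3324, 3224 and 3233 in males. Every female heart was below every male heart. The log2 fold change was -0.097 ± 0.031 (SE), a female-to-male ratio of 0.935, with a limma adjusted p of 0.156, the lowest of the 51 genes. Sdhaf3, needed with Sdhaf1 for the iron-sulfur clusters of Sdhb (chr6:6956004-7042979, plus strand), measured 503, 473, 505 and 486 in females and 551, 554, 519 and 545 in males. Here too the lowest male heart was above the highest female heart. Its log2 fold change was -0.14 ± 0.055 (SE), with a limma adjusted p of 0.242. Sdhaf1 had -0.070 and Sdhaf4 -0.018, with overlapping hearts and limma adjusted p-values of 0.589 and 0.895.

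Sdhaf2, Sdhaf3, Cox7a2l and Atp5s were the 4 of 51 genes whose female and male hearts did not overlap. This share was no higher than the 9.35% of all genes. All 4 were lower in females (background 4.82% lower and 4.52% higher), and none passed the limma test. Macrophage marker genes were lower in females as well: 8 of 8 had values below 0 with a median log2 fold change of -0.39, 3 of 8 passed the limma test, and their summed normalized read count ranged from 19492 to 22660 in females and from 23474 to 30078 in males. Their part in the values of these 4 genes was not tested. A stretch of the Sdhaf2 transcript matched transcripts of 11 other genes of the table at 98% identity or more over at least 100 bases, and its exons overlapped 94 bases of Cpsf7 on the other strand, so its count is uncertain to that extent.

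**Figure D3:**
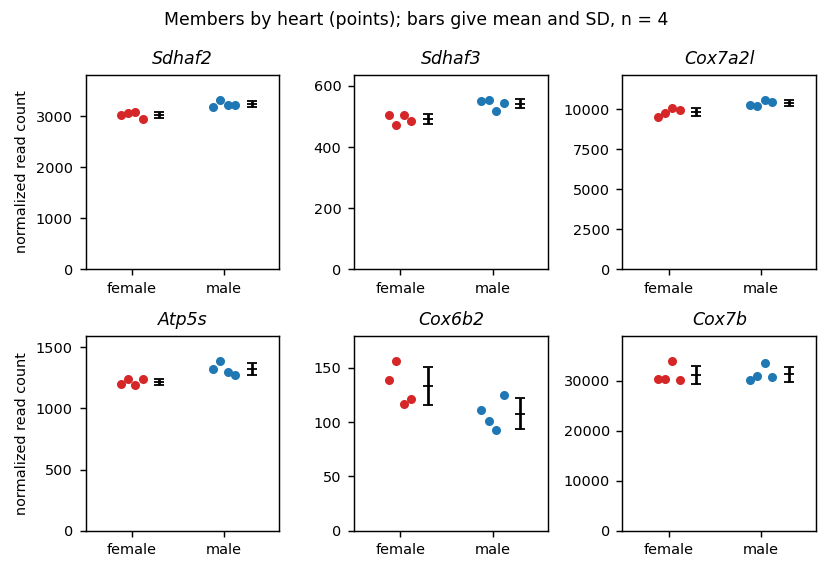
Normalized read count of 6 genes in each heart (points; 4 female, 4 male), with mean and SD beside each group and each axis starting at 0. Female and male points do not overlap for Sdhaf2, Sdhaf3, Cox7a2l and Atp5s, and they do for Cox6b2 and for the X-linked Cox7b.

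Complex III moves electrons from ubiquinol to cytochrome c through the Rieske protein Uqcrfs1 and cytochrome c1, Cyc1, around the core proteins Uqcrc1 and Uqcrc2. All 9 of its genes had log2 fold changes below 0, between -0.073 and -0.018 with a median of -0.041, and none passed the limma test. Uqcrb, a ubiquinone-binding subunit (chr13:66900617-66905378, minus strand), was the farthest from 0, at 20618, 21026, 22382 and 20737 normalized reads in females and 21943, 22686, 22285 and 22181 in males. Female replicate 3 lay among the male hearts and the other 3 female hearts below them. Its log2 fold change was -0.073 ± 0.033 (SE), with a limma adjusted p of 0.301.

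Uqcrfs1 (chr13:30540308-30545362, minus strand) measured 42793, 41508, 45479 and 41352 in females and 42798, 44203, 46402 and 44793 in males. Its sexes overlapped, again through female replicate 3, and the log2 fold change was -0.059 ± 0.038 (SE), with a limma adjusted p of 0.494. Uqcrq had a log2 fold change of -0.065, Uqcrc2 of -0.044, Cyc1 of -0.041, Uqcr11 of -0.035, Uqcrc1 of -0.034, Uqcr10 of -0.031 and Uqcrh of -0.018. Their limma adjusted p-values lay between 0.530 and 0.866. These 9 genes varied together from heart to heart, so their shared sign is not 9 separate observations. With the replicate number of the titles as a block 8 of 9 were below 0, with the number of the library code 6 of 9, and without male replicate 4 there were 8.

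Cycs, the soluble carrier between complexes III and IV (chr6:50562563-50566538, minus strand), measured 29427, 28200, 30009 and 27451 normalized reads in females and 28886, 30703, 31020 and 30416 in males. Male replicate 1 lay inside the female range, and the other 3 males were above all females. The log2 fold change was -0.073 ± 0.037 (SE), with a limma adjusted p of 0.354. Stretches of Cycs matched transcripts of 7 annotated genes, 1 of them in the table, at 98% identity or more over at least 100 bases. Reads may be shared between them.

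Complex IV, cytochrome c oxidase, had 4 genes above 0 and 4 below, with a median log2 fold change of 0.0046. Cox7a2l (chr17:83501918-83517330, minus strand) has been described as a factor that links complexes III and IV into supercomplexes. Whether its protein does so in mice of this strain was not measured. The gene stood at 9510, 9782, 10090 and 9942 normalized reads in females and 10253, 10162, 10569 and 10453 in males. The highest female heart stayed just under the lowest male heart. The log2 fold change was -0.076 ± 0.030 (SE), with a limma adjusted p of 0.246. A stretch of Cox7a2l matched Gm6969, which is also in the table, at 98% identity or more over at least 100 bases.

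Cox6b2 (chr7:4751792-4753094, minus strand) had the value farthest from 0 of all 51. It measured 138.7, 156.1, 117.1 and 121.8 normalized reads in females and 111.6, 100.7, 92.9 and 125.5 in males. Male replicate 5 lay above 2 of the females, so the sexes overlapped. Its log2 fold change was 0.31 ± 0.13 (SE) with a limma adjusted p of 0.288. Its abundant counterpart Cox6b1 (chr7:30616861-30626151, minus strand) had -0.036, with a limma adjusted p of 0.667. Whether the isoforms differ in their sex difference was not tested. The remaining nuclear complex IV subunits described here, Cox5a, Cox5b, Cox6c and Cox7c, had log2 fold changes from -0.020 to 0.026. Their limma adjusted p-values lay from 0.774 to 0.882, and their hearts overlapped.

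Cox7b (chrX:106015700-106022450, plus strand), a small complex IV subunit, was the only X-linked gene among the 51, the other 50 being autosomal. It measured 30340, 30307, 33928 and 30273 normalized reads in females and 30185, 30886, 33562 and 30790 in males. One heart of each sex, female replicate 3 and male replicate 4, stood above the rest, and the sexes overlapped almost fully. The log2 fold change was -0.0072, with a 95% interval from -0.11 to 0.091 and a limma adjusted p of 0.958.

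Complex V, the ATP synthase, lay closest to 0. Its 15 genes had a median log2 fold change of 0.00062, 8 above 0 and 7 below, and every interval stayed within 0.2 of 0. Atp5a1 measured 294584, 281060, 304654 and 278642 normalized reads in females and 283894, 283761, 290815 and 299494 in males. Hearts of both sexes were mixed over the range, and the log2 fold change was 0.00062 ± 0.037 (SE), with a limma adjusted p of 0.996. Atp5b had 0.013, with a limma adjusted p of 0.900. Exons of Atp5a1 overlapped 129 bases of Haus1 on the other strand, which without a stated strand setting leaves those reads uncertain.

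Atp5e, the epsilon subunit of the central stalk (chr2:174461072-174464105, minus strand), was the farthest from 0 within complex V. It measured 19022, 19263, 21434 and 19187 normalized reads in females and 17704, 18796, 19682 and 18563 in males. Female replicate 3 was far above the other females, and the rest overlapped with the males. The log2 fold change was 0.077 and the limma adjusted p 0.427, and without female replicate 3 the value was 0.037. The other central stalk genes, Atp5c1 (gamma) and Atp5d (delta), had 0.013 and 0.016, with limma adjusted p-values of 0.895 and 0.888. The membrane subunits Atp5k, Atp5l and Atp5j2 had log2 fold changes between -0.038 and -0.014, and the 4 peripheral stalk genes Atp5f1, Atp5h, Atp5j and Atp5o between -0.015 and 0.011.

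The 3 c subunit genes took unequal shares of the messenger RNA for the ring, with Atp5g3 the highest in every heart. Reads of Atp5g1 and Atp5g2 may be shared with the matching genes named above, and the effect on the shares was not tested. Per kb of exon, Atp5g3 made up 65.2% ± 0.174 of their summed level in females and 65.4% ± 0.422 in males (mean ± SD, n = 4 per sex), Atp5g1 24.3% ± 0.291 and 24.6% ± 0.522, and Atp5g2 10.5% ± 0.156 and 10.1% ± 0.244. These shares depend on the length used: in females Atp5g1 took 11.9% with the longest transcript, 16.7% with the median coding transcript and 42.8% with no length correction, and Atp5g2 took 10.9%, 9.56% and 6.27%. The Atp5g2 share was 10.27%, 10.41%, 10.62% and 10.54% in females and 10.31%, 9.96%, 9.77% and 10.20% in males. One male, replicate 1, exceeded the lowest female. Reassigning the hearts to the sexes in all 70 ways (exact permutation test, two-sided, smallest possible p 0.0286), the differences were 0.40 percentage points for Atp5g2 (p = 0.0571, adjusted over the 3 shares 0.171), -0.22 for Atp5g1 (p = 0.543, adjusted 0.543) and -0.18 for Atp5g3 (p = 0.486, adjusted 0.543). The genes themselves had log2 fold changes of -0.037 (Atp5g1), 0.032 (Atp5g2) and -0.028 (Atp5g3), with limma adjusted p-values of 0.679, 0.710 and 0.757.

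Assembly of complex IV needs heme A, made by Cox10 and Cox15, copper, carried by Cox17, Cox11 and Cox19, and chaperones such as Cox14 and Cox20. Cox11 measured 936, 934, 998 and 872 normalized reads in females and 1049, 1021, 1057 and 885 in males. Male replicate 5 lay near the lowest female while the other 3 males were above all females. Its log2 fold change was -0.099 with a limma adjusted p of 0.490. The other copper carriers, Cox17 and Cox19, had 0.012 and 0.019, and Cox15, Cox16 and Cox18, the last a membrane insertase, had values from -0.040 to 0.0033, with limma adjusted p-values of these 5 from 0.836 to 0.98. Cox14 had -0.058 and a limma adjusted p of 0.536, Cox10 had 0.035 and 0.743, and Cox20 had 0.052 and 0.773. The exons of Cox20 (chr1:178319130-178322693, plus strand) overlapped those of Hnrnpu on the other strand over most of their length, so its reads may belong in part to that abundant gene.

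Atp5s, named as a coupling factor of ATP synthase (chr12:69724950-69744660, plus strand), measured 1196, 1241, 1189 and 1235 normalized reads in females and 1321, 1384, 1296 and 1272 in males. The groups did not overlap. The log2 fold change was -0.12 ± 0.041 (SE), a female-to-male ratio of 0.922, with a limma adjusted p of 0.197.

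Across the 8 hearts the subunit genes were high or low together, and the assembly factors had lower correlations with them. Each gene's deviation from its sex mean was compared over the 8 hearts, which share library and size factor. Among the 37 subunit genes and Cycs, the median Pearson r over 666 pairs was 0.83, and 90.7% of pairs were above 0.5. The median was 0.865 within complex II, 0.885 within III, 0.783 within IV and 0.853 within V. Between these 37 and the other 14 genes, 13 assembly factors and Atp5s, it was 0.357, among those 14 it was 0.156, and between the 37 and all other genes it was -0.015. The 2 groups also differed in level, with a median of 31284 normalized reads for the 37 and 1460 for the 14. The part of level in these correlations was not tested. Leaving out 1 heart moved the values that involve the assembly factors: the median between the 37 and the 14 was 0.061 without female replicate 3 and 0.55 without male replicate 5. Among the 14, leaving out female replicate 3 gave -0.057, female replicate 4 gave 0.093 and male replicate 5 gave 0.30. Without female replicate 3 the median among the 37 was 0.698, with 66.1% of pairs above 0.5, and without any other single heart it was between 0.824 and 0.864.

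The genes closest to the common course were Atp5h, a peripheral stalk subunit (r = 0.995 with the median of the other subunits), and Atp5o, the stalk subunit that confers oligomycin sensitivity (r = 0.983). Of the 37, 34 had an r of at least 0.75, and those below were Sdha (0.685), Cox7a2l (0.583) and Cox6b2 (-0.511). Of the other 14 genes, 1 reached it, Cox14, at 0.940, and Atp5s stood at -0.465. These values describe 8 hearts and carry no test.

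The highest and lowest hearts were often the same from gene to gene. Of the 37 genes, 23 were highest in female replicate 3 and 11 in male replicate 4, and 15 were lowest in male replicate 1. The median deviation of the 37 from the male mean, in log2 units, was -0.029, -0.057, 0.074 and -0.043 in the females and -0.056, -0.00031, 0.034 and 0.012 in the males. Female replicate 3 was also the highest of the 8 hearts for the median of 8 cardiomyocyte markers (0.12, the others -0.074 to 0.046) and the lowest for 8 endothelial markers (-0.14, the others -0.094 to 0.090), 8 fibroblast markers (-0.12, the others -0.056 to 0.062) and 8 macrophage markers (-0.51, the others -0.40 to 0.14). Summed over the 8 cardiomyocyte markers, normalized reads ranged from 4443270 to 4862790 in females and from 4286000 to 4654130 in males. Between the sexes, 1 of 8 cardiomyocyte markers (Ryr2) and 1 of 8 fibroblast markers (Lum) passed the limma test, both higher in females, and 0 of 8 endothelial markers did. In the cardiomyocyte list and in the fibroblast list, 4 of 8 log2 fold changes were above 0 and 4 below. The cardiomyocyte marker Actc1 had -0.19, every female heart below every male heart, with a limma adjusted p of 0.0796. The median r of the 37 genes was 0.647 with the cardiomyocyte markers, -0.337 with the fibroblast markers and -0.423 with the endothelial markers. Without female replicate 3 these medians were 0.483, 0.284 and -0.152. The part of these markers in the common course was not tested.

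**Figure D4:**
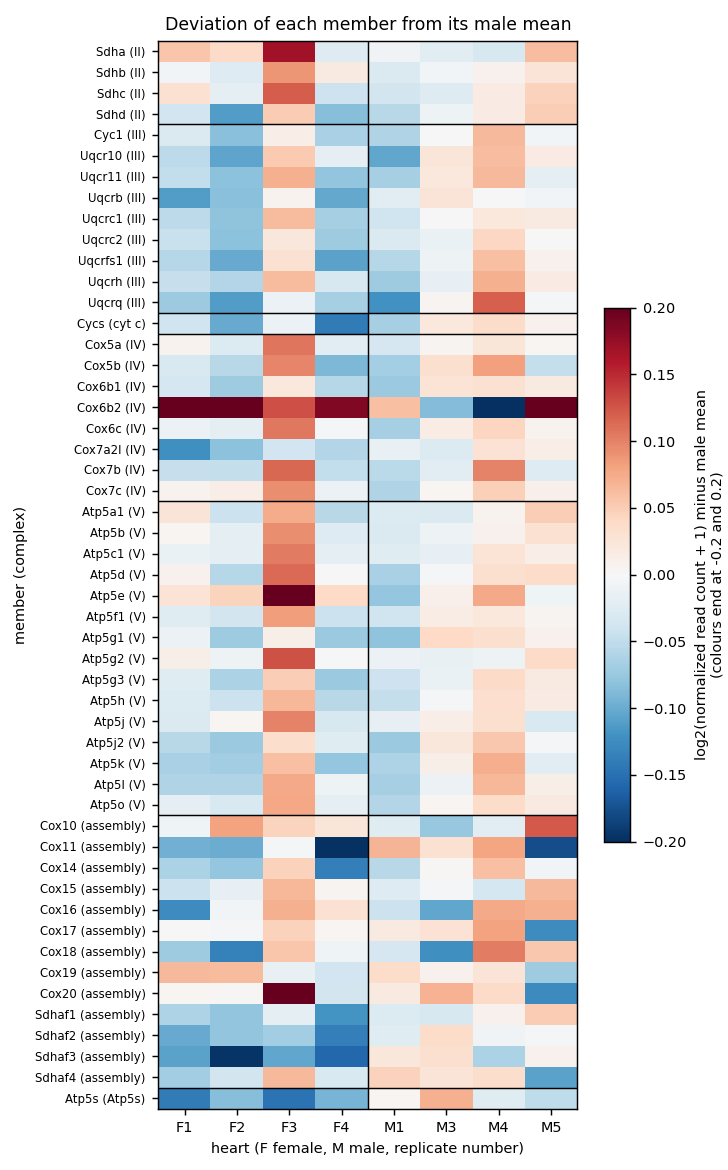
Deviation of each of the 51 genes in each heart from its male mean, in log2 units of normalized read count plus 1, with colours ending at -0.2 and 0.2. In female replicate 3 the subunits of complexes II to V are above their male mean other than Uqcrq and Cox7a2l, while Cycs, several assembly factors and Atp5s are not.

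The nuclear genes for complex I, the entry point for NADH electrons, correlated with these genes over the hearts. All 37 complex I genes compared carry Nduf names, Ndufa4 among them, and a name alone does not place a protein in complex I. Between the 37 genes here and these 37 the median r was 0.813 over 1369 pairs, and with citric acid cycle enzymes it was 0.722. Without female replicate 3 these medians were 0.654 and 0.340. For the 8 oxidase isoform genes left out by name it was 0.702, and for the 6 genes of complexes III to V in the mitochondrial genome it was -0.065, and it lay between -0.30 without female replicate 4 and 0.17 without male replicate 4. None of the 37 complex I genes passed the limma test, with 33 of 37 values below 0 and a median log2 fold change of -0.041, and none of the 8 isoform genes did, with a median of -0.022. None of the 14 citric acid cycle genes passed, with a median of -0.038. None of the 12 regulators of mitochondrial biogenesis did, with a median of 0.046.

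**Figure D5:**
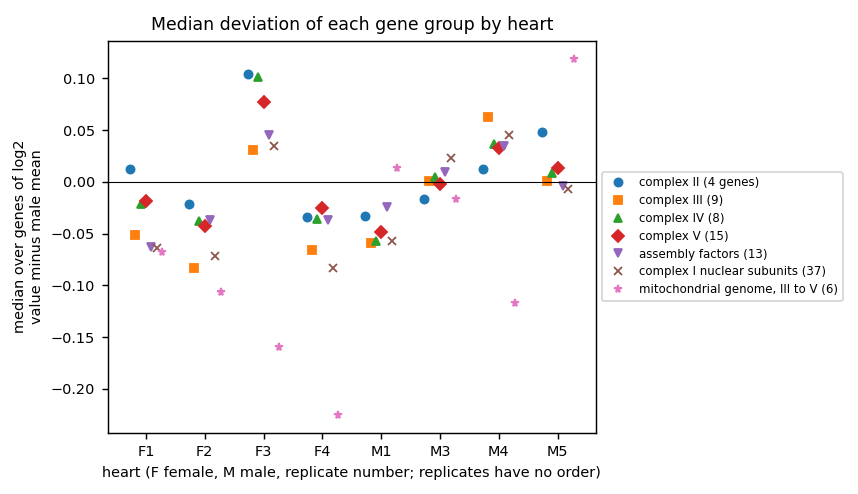
Median over genes of the log2 deviation from the male mean in each heart. Groups are the complexes, the assembly factors, the nuclear genes with complex I names (Nduf) and the 6 mitochondrially encoded genes of complexes III to V. In female replicate 3 every nuclear group lies above 0, where the mitochondrially encoded group is at -0.16.

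Complexes III and IV also need subunits from mitochondrial DNA. The mitochondrially encoded genes of complexes III to V had 6 of 6 log2 fold changes below 0, with a median of -0.13, and none passed the limma test (lowest adjusted p 0.127, mt-Co1). For complex III, reads of mt-Cytb were 6.11 ± 0.216 times the summed normalized reads of the 9 nuclear genes in females and 6.39 ± 0.371 times in males (mean ± SD, n = 4 per sex). For complex IV, the summed reads of mt-Co1, mt-Co2 and mt-Co3 were 23.6 ± 0.777 times those of the 8 nuclear genes in females (22.8 to 24.6) and 25.9 ± 1.52 times in males (23.8 to 27.1). This sum was almost wholly mt-Co1: its mean normalized read count was 4758890 in females, against 1424 for mt-Co2 and 1600 for mt-Co3. The counts of mt-Atp6 (1979 in females) and mt-Atp8 (559.1) were as low beside mt-Co1 and mt-Cytb, so no ratio is given for complex V, and 4 of the 6 genes behind the median and the correlation of this group rest on such counts. Why they are so low was not tested. Female and male hearts overlapped in both ratios, and neither was tested.

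Of 25 further assembly factors and regulators of complexes III to V, whose names fall outside the pattern, 21 had values below 0, with a median log2 fold change of -0.050. One passed the limma test: Atpif1, the inhibitor that binds the catalytic head of complex V, at 4461 ± 109 normalized reads in females and 5060 ± 112 in males (mean ± SD, n = 4 per sex). Its log2 fold change was -0.18 ± 0.031 (SE), lower in females, with a limma adjusted p of 0.0188, and no female heart reached the lowest male. Next was Atpaf1, which assembles the same head, at -0.13 with a limma adjusted p of 0.115.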

How the data were processed

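Whole hearts of 4 female and 4 male mice were compared. The deposited table has 1 signal column per heart for 17911 genes: reads over a size factor (0.821 to 1.17), as the values themselves show. It also has the authors' log2 fold change and the authors' p-values, quoted only where named. The build was mm10, per the submitters' processing notes, and the aligner, counter and strand setting were not given in the sources used here. Values of all genes were whole multiples of 1 read (100% within 0.001 reads), so reads were recovered, 51.7 M to 75.7 M per heart. On them edgeR 4.0.16 called 166 genes, none of the 51.

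The main test was limma 3.58.1 (R 4.3.3, trend and robust options) on log2 values with a pseudocount of 1, females minus males, without covariates, for genes at 1 or more in at least 4 hearts, called at an adjusted p under 0.05. The design named limma for normalized values. The fit was tested on simulated data. Such fold changes understate low genes. Lengths were unions of GENCODE vM21 exons.

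Alternatives were other pseudocounts, filters and tools (DESeq2 1.42.0, edgeR with TMM or RLE, limma-voom), replicate blocks, total reads as covariate, the 5 hearts with the most reads, each heart left out, and other transcript lengths. The median coding transcript, both other lengths for the c subunit shares, and co-variation without each heart were chosen after seeing the data.

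The member set, though defined by names alone, and the gene lists were chosen with earlier results of these data known. Named genes were the 5 highest and 5 lowest fold changes, any called gene, the highest and lowest level of each complex, the c subunit genes, Cox7b, Cox6b1, Cox6b2 and Cox7a2l. Other genes named with values were chosen after their values were seen. Of the 51, 20 overlap exons of another gene and 26 share a near-identical stretch (98% over 100 bases) with one, so their counts are uncertain to that extent.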

Additional observations from a re-analysis of the deposited data

Results flagged for a closer look

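In 88 groups of 4 hearts of 1 sex, 8 had a heart far from the other 3 by Dixon's ratio at the 95% level, where chance gives about 1 in 20. Female replicate 3 was the high heart for Atp5e (21434 normalized reads, the others 19022 to 19263), Atp5g2 (9642, the others 8771 to 8907), Cox20 (850.7, the others 702.8 to 722.6) and Cox7b (33928, the others 30273 to 30340). It was also the high heart for the median log2 deviation of complex IV, at 0.10 against -0.038 to -0.021. Among males, replicate 5 was high for Atp5g2 (9065, the others 8742 to 8767) and low for Sdhaf4 (1543, the others 1693 to 1715), and replicate 1 was low for Cox6b1 (27375, the others 29173 to 29431). The value of Cox20 without female replicate 3 was -0.010 in place of 0.052. The causes were not tested.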

How the results depend on the processing

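The count of 0 called genes among the 51 held under all 22 alternatives, with 2 to 12 genes at an unadjusted p under 0.05 where a fit was made (12 without female replicate 3, 2 without female replicate 2 or male replicate 3, 6 as designed). The fit with no filter repeats the main fit, since the filter removed 0 genes. The threshold of the series text, a log2 fold change over 0.6 in size, could call none of the 51, whose largest was 0.31. Over all genes 208 were called, 35 with limma without trend and robust options, 690 with DESeq2 and 28 with the replicate block by library code number. Without 1 heart the count lay between 77 and 516: 77 without female replicate 2, 110 without 3, 129 without 4, and 137, 94, 84 and 516 without male replicates 1, 3, 4 and 5.

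The median log2 fold change of the 51 lay between -0.047 and 0.013 over the alternatives, above 0 only with the library code block. Of 735 changes of 35 named genes under 21 alternatives, 704 kept their sign and none was called. These include the fit with no filter, in which every sign had to stay. With total reads as covariate, Atp5a1 was -0.0064, Cox10 -0.0046, Cox7b 0.0090 and Sdhaf4 0.014. In the 5 hearts with the most reads, Cox20 was -0.039 and Sdhb -0.0064. Without 1 heart, values ran from -0.024 to 0.019 for Atp5a1, -0.044 to 0.0086 for Atp5l, -0.010 to 0.082 for Cox20, -0.048 to 0.026 for Cox7b, -0.0099 to 0.044 for Sdhc, -0.014 to 0.026 for Atp5b, -0.0040 to 0.034 for Sdhb and -0.046 to 0.0052 for Uqcrh.

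With the replicate block by title number, 145 genes and none of the 51 were called, and Atp5l was 0.0060 and Uqcrh 0.00084. With the block by library code number, Atp5l was 0.024, Cox7b 0.039, Sdhaf4 0.00012, Atp5h 0.0056, Uqcr10 0.014, Uqcr11 0.0025 and Uqcrh 0.019. Deviations of hearts with 1 title number had r of 0.17, -0.046 and -0.11, and with 1 code number 0.17, -0.046 and 0.12. By title number 2 of 6 hearts correlated best with their own number, by code number 3 of 6. With 3 pairs for each numbering, these values cannot decide whether the samples were paired.

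The Atp5g1 share difference lay between -0.40 and 0.016 percentage points without 1 heart, above 0 without male replicate 3, and that of Atp5g3 was 0.0021 with no length correction. Median levels per kb in complexes II, III, IV, V and assembly factors were 27076, 28479, 24393, 26992 and 791.6 with the longest transcript, and 36704, 44676, 47517, 50725 and 1386 with the median coding transcript. Cox6b2, the subunit with the fewest reads (92.9 to 156.1 normalized reads), had the widest interval of the 51. The causes were not tested.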
